A study of Mus musculus with 9 samples.

Results

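The renin-angiotensin system was followed through 9 of its genes in whole mouse kidney. The genes were Agt, Ren1 and Ace, which make angiotensin II, Agtr1a, Atp6ap2 and Nr3c2, which encode receptors, and Enpep, Mme and Anpep, which encode peptidases that break angiotensins down. They were chosen by name, with earlier results of these data known, from the 55359 genes of the deposited count table. All 9 passed the filter on low counts that left 17179 genes for testing. Messenger RNA was sequenced in 9 libraries, and each of the 3 groups had 3. The HFD-STZ DHZ group ate a high-fat diet (49.0% of calories from fat) from 6 weeks of age, was injected on days 60 and 63 of that diet with 30 mg/kg of streptozotocin (STZ), which kills pancreatic beta cells, and was then given dehydrozingerone (DHZ), a phenolic ketone found in ginger, by mouth at 50 mg/kg for 2 weeks. The HFD-STZ vehicle group had the same diet and injections without the compound. The NCD vehicle group ate a normal calorie diet (11.32% of calories from fat) from 6 weeks of age and had 0 STZ injections. The vehicle, the strain, the sex and the number of animals behind the libraries were not given in the sources used here. Group names were read from the sample titles, because the treatment label names the compound for every library. The batch dates in the labels run with the groups, so a difference between groups cannot be told apart from batch.

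Angiotensinogen, the product of Agt, is cut by renin to angiotensin I, which angiotensin-converting enzyme (Ace) trims to angiotensin II. Angiotensin II constricts vessels and raises sodium reabsorption through its type 1 receptor, and it releases aldosterone, which acts on the mineralocorticoid receptor of distal nephron cells. In the kidney, renin comes from juxtaglomerular cells of the afferent arteriole, angiotensinogen from proximal tubule cells, and the brush border of the proximal tubule is rich in peptidases that shorten angiotensins.

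Agt and Ren1 stand at the head of the cascade and differed in opposite directions between HFD-STZ DHZ and HFD-STZ vehicle, so their promoters are shown first. Both are from RefSeq on build GRCm38.p6, older than the GRCm39 build named in the submitters' processing notes, and hold the 250 bases before the annotated start, 5′ to 3′ on the gene's own strand. The Ren1 window is chr1:133350424-133350673 on the plus strand and the Agt window is chr8:124569707-124569956 on the minus strand. Capitals mark the motif TATAAA.
Ren1: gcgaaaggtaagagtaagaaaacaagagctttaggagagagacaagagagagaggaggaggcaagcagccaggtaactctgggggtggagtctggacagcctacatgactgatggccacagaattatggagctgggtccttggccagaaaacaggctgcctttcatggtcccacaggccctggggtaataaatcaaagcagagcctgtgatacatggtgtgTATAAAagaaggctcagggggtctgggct
Agt: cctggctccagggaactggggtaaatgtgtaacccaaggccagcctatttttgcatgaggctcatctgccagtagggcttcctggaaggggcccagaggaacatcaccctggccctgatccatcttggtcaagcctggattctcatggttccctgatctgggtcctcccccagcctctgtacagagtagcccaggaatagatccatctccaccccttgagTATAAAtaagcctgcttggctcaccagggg
The motif begins at base -29 in Ren1 and at base -30 in Agt, counted from the start site, and lies on the strand of the gene in both. Searched on both strands, TATAAA was found in 12.3% of 32536 RefSeq promoter windows of this length. It was found in the windows of 4 members, on the opposite strand in Enpep and Ace. Promoter entries were matched by symbol for 8 of the 9 members, and the cAMP response element, searched by its consensus, was in 0 of those windows against 1.56% of all windows. At that share, 0 among 8 members cannot set them apart from other genes. Bases outside the windows were not searched.

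The libraries differed in depth and make-up. Total counts were 27.6 to 47.5 M (mega) in HFD-STZ DHZ, 15.1 to 34.9 M in HFD-STZ vehicle and 17.1 to 25.9 M in NCD vehicle, of which nuclear protein-coding genes held 7.63 to 15.2 M, 2.13 to 6.52 M and 4.59 to 8.49 M. HFD-STZ vehicle replicate 2 stood apart, with 60.4% of its counts on mitochondrially encoded genes and 2.13 M nuclear protein-coding counts. Library 3 of HFD-STZ DHZ, libraries 2 and 3 of HFD-STZ vehicle and library 1 of NCD vehicle held Y-linked transcripts, and the other 5 did not. The label "kidney" was checked on 10 proximal convoluted tubule markers, and all 10 were detected in each group. Levels are given as CPM, counts per 1 M counts of library size, after scaling with edgeR's trimmed mean method (TMM). Genes are called where edgeR's quasi-likelihood test, with Benjamini-Hochberg adjustment over all tested genes, gave an adjusted p below 0.05, and each adjusted p is from that test unless another is named. A log2 fold change has its standard error (SE) beside it. In whole tissue, fewer cells of a type and less RNA per cell cannot be told apart.

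In HFD-STZ DHZ, 6 of the 9 genes were called relative to HFD-STZ vehicle. Words such as rose and fell stand for differences between groups, which batch may share. Ren1, Nr3c2, Agtr1a, Atp6ap2 and Enpep rose by 1.72-fold to 2.76-fold, and Agt fell to 0.540 of its vehicle level. That is 6 of 9 genes, where 22.1% of all tested genes were called. In the higher direction 5 of 9 members were called higher, where 10.0% of all tested genes were, and 1 of 9 was called lower, where 12.0% were. The same 6 genes did not overlap between the groups, where 39.8% of all tested genes did not. In 5 the DHZ libraries were the higher ones (20.9% of all tested genes) and in 1 the lower ones (19.0%). An unadjusted p below 0.05 was found for 7 of 9 members and 37.1% of all tested genes. The median log2 fold change of the 9 members was 0.92, against 0.04 over all tested genes, and 8 of the 9 estimates were positive. Because the members were chosen with earlier results known, these shares describe the list and do not test it.

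**Figure D1:**
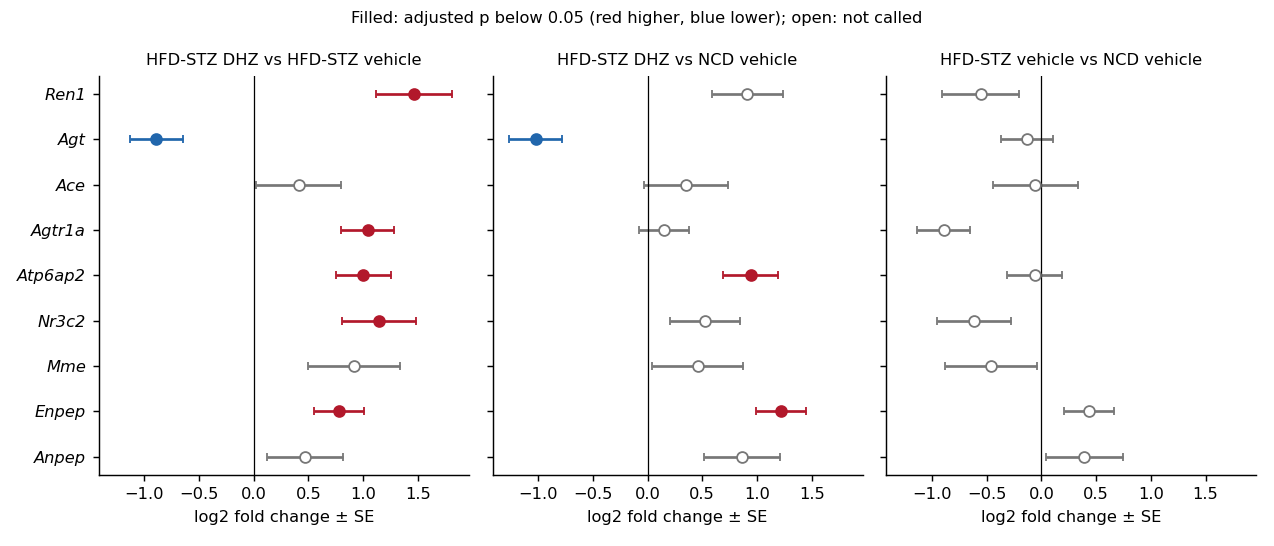
Log2 fold change (± SE) of the 9 genes in the 3 comparisons, 3 libraries a group, edgeR quasi-likelihood fit. Filled points are called at an adjusted p below 0.05. Agt is the only filled point left of 0, at -0.89 and -1.02 in the 2 DHZ comparisons, and the comparison of HFD-STZ vehicle with NCD vehicle has no filled point.

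Agt, which encodes the precursor of all angiotensins, stood at 9.17, 13.3 and 7.97 CPM in HFD-STZ DHZ, at 17.9, 16.3 and 22.2 CPM in HFD-STZ vehicle, and at 16.4, 23.6 and 21.9 CPM in NCD vehicle. All 3 DHZ libraries lay below all 6 others, while the HFD-STZ vehicle and NCD vehicle libraries overlapped. The log2 fold change was -0.89 (SE 0.24, adjusted p = 0.0236) for HFD-STZ DHZ over HFD-STZ vehicle and -1.02 (SE 0.24, adjusted p = 0.0218) against NCD vehicle. For HFD-STZ vehicle over NCD vehicle it was -0.13 (SE 0.24, adjusted p = 0.91). The first of these calls was lost without HFD-STZ vehicle replicate 3, DHZ replicate 1 or DHZ replicate 3 (adjusted p up to 0.103), and the second without any of the 3 NCD vehicle libraries, DHZ replicate 1 or DHZ replicate 3 (up to 0.1002). Both calls were also lost when library size alone was used without TMM scaling. The median of all genes was then 0.81 for HFD-STZ DHZ over HFD-STZ vehicle, and Agt, at -0.12 (adjusted p = 0.90), lay below that median. Against NCD vehicle it was then at -1.03 (adjusted p = 0.79). The summed level of 6 proximal straight tubule markers, all detected, was 221 to 345 CPM in HFD-STZ DHZ, 164 to 745 CPM in HFD-STZ vehicle and 236 to 739 CPM in NCD vehicle. Of this sum, Slc7a13 held 96.0 to 516 CPM in the libraries with Y-linked transcripts and 0.813 to 3.07 CPM in those without. For HFD-STZ DHZ over HFD-STZ vehicle, 1 of the 6, Slc3a1, was called higher (1.26, adjusted p = 0.0455) and 0 lower (10.0% and 12.0% of all tested genes). That call was lost without any 1 of 6 libraries. The part of these markers in the Agt difference was not tested. Liver is the main source of Agt in the body. The 6 liver markers, all detected, summed to 52.7 to 58.0 CPM in HFD-STZ DHZ, 33.4 to 159 CPM in HFD-STZ vehicle and 26.4 to 32.1 CPM in NCD vehicle, and Alb, the defining one, was at 1.31 to 4.00 CPM, 0.944 to 2.73 CPM and 1.60 to 3.66 CPM in the same order of groups.

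Ren1, which encodes renin, the rate-limiting protease of the cascade, stood at 5.70, 4.26 and 4.04 CPM in HFD-STZ DHZ. It stood at 1.68, 1.21 and 2.01 CPM in HFD-STZ vehicle and at 1.34, 3.07 and 2.94 CPM in NCD vehicle. Each DHZ library was higher than each of the 6 others. These levels rest on 194, 276 and 139 counts in HFD-STZ DHZ, on 31, 9 and 50 counts in HFD-STZ vehicle, and on 25, 74 and 115 counts in NCD vehicle, so the vehicle libraries are the less precise. The log2 fold change was 1.47 (SE 0.34, adjusted p = 0.0134) for HFD-STZ DHZ over HFD-STZ vehicle, the largest among the members. It was 0.91 (SE 0.33, adjusted p = 0.0784) against NCD vehicle, which did not pass, although it did with DESeq2 (0.90, adjusted p = 0.0479). HFD-STZ vehicle over NCD vehicle gave -0.55 (SE 0.35, adjusted p = 0.74). Leaving out each library in turn ended the first call only without DHZ replicate 1 (adjusted p = 0.0621). Without HFD-STZ vehicle replicate 2, whose Ren1 level rests on 9 counts, it held. The summed level of 9 mesangial and vascular smooth muscle markers, all detected, was 53.6 to 66.4 CPM in HFD-STZ DHZ, 57.1 to 86.1 CPM in HFD-STZ vehicle and 79.7 to 108 CPM in NCD vehicle. Of this sum, Gata3 held 10.4 to 14.4 CPM in HFD-STZ DHZ, 28.5 to 33.7 CPM in HFD-STZ vehicle and 21.5 to 23.1 CPM in NCD vehicle. Whether its RNA came from these cells was not tested. The sums overlapped between HFD-STZ DHZ and HFD-STZ vehicle, and single markers went both ways. In HFD-STZ DHZ, Pdgfrb (log2 fold change 1.13, adjusted p = 0.0096) and Tagln (1.29, adjusted p = 0.042) were called higher than in HFD-STZ vehicle, and Myh11 (-0.92, adjusted p = 0.0236) and Gata3 (-1.35, adjusted p = 0.0031) lower. That is 2 of 8 tested markers in each direction, where 10.0% of all tested genes were called higher and 12.0% lower. The Tagln call was lost without any 1 of 7 libraries and that of Myh11 without any 1 of 4. Against NCD vehicle all 8 estimates were negative. Acta2, Myh11 and Gata3 were called lower there, 3 of 8, where 7.38% of all tested genes were. Of these, the Acta2 call was lost without any 1 of 4 libraries and that of Gata3 without any 1 of 2. The part of these cells in the Ren1 difference was not tested. Some mouse strains carry a near-identical copy, Ren2. The strain is not known here, and reads of such a copy cannot be separated from those of Ren1.

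Ace, which encodes the converting enzyme, stood at 16.6, 14.0 and 7.82 CPM in HFD-STZ DHZ, at 10.6, 4.05 and 13.6 CPM in HFD-STZ vehicle, and at 7.11, 12.0 and 10.9 CPM in NCD vehicle. The 3 groups overlapped. The log2 fold change was 0.41 (SE 0.39, adjusted p = 0.47) for HFD-STZ DHZ over HFD-STZ vehicle, 0.35 (SE 0.38, adjusted p = 0.56) for HFD-STZ DHZ against NCD vehicle and -0.06 (SE 0.39, adjusted p = 0.98) for HFD-STZ vehicle over NCD vehicle. A gene model on the opposite strand within Ace, Gm11651, had 1 count in all 9 libraries, against 3154 for Ace.

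**Figure D2:**
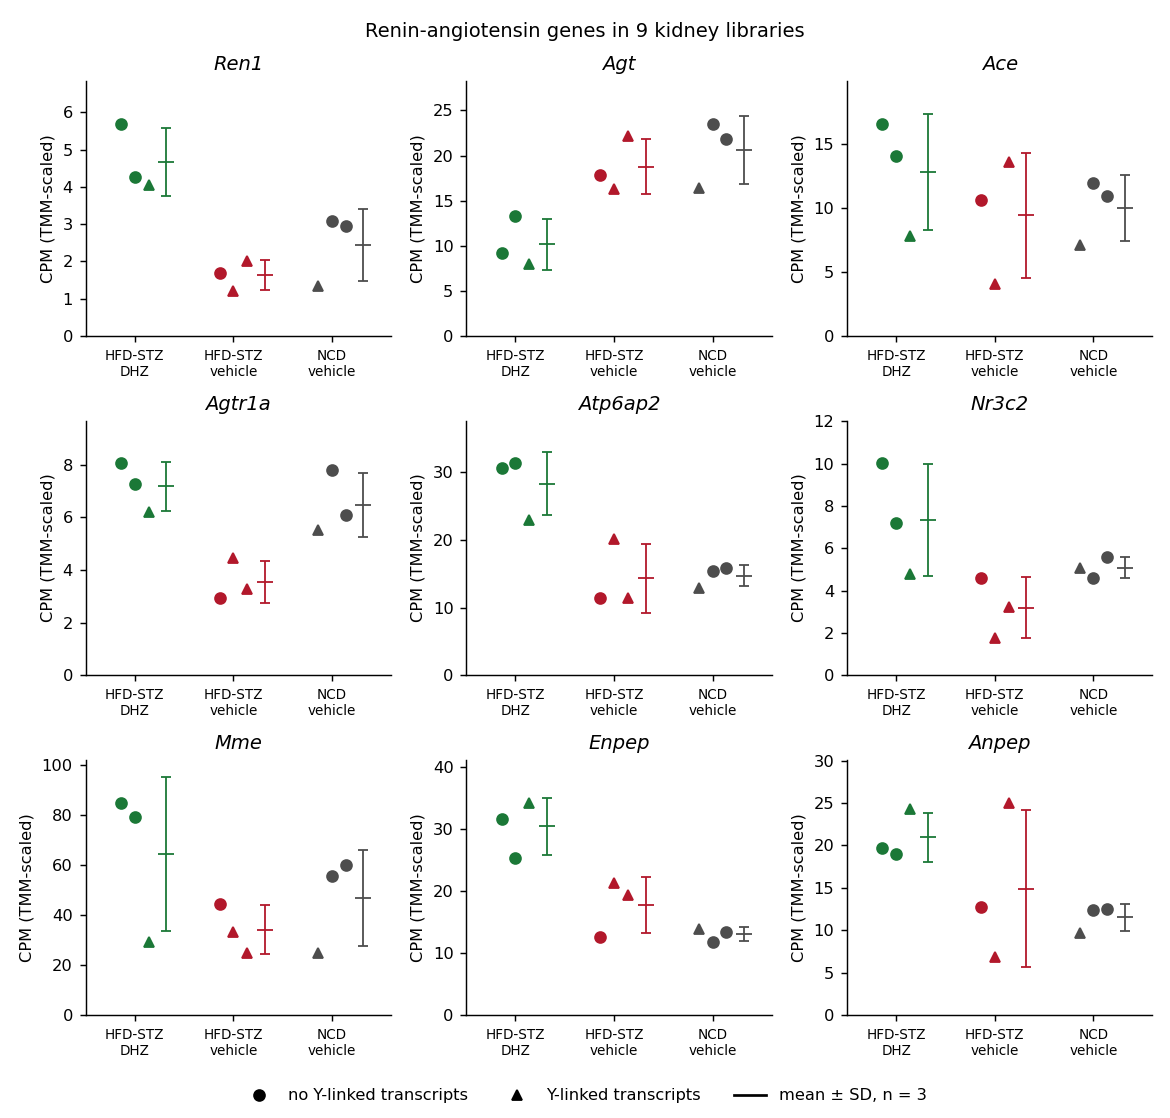
Level in CPM (TMM-scaled) of each of the 9 genes in every library, with group mean ± SD (n = 3), HFD-STZ DHZ left, HFD-STZ vehicle in the middle and NCD vehicle right. Triangles are libraries with Y-linked transcripts. Agt is lowest in the 3 DHZ libraries, at 7.97 to 13.3 CPM, while Ren1, Atp6ap2 and Enpep are highest there.

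Agtr1a, the main type 1 angiotensin II receptor of mouse kidney, had 8.05, 7.26 and 6.19 CPM in HFD-STZ DHZ and 2.93, 4.45 and 3.29 CPM in HFD-STZ vehicle. It had 5.51, 7.81 and 6.08 CPM in NCD vehicle. The HFD-STZ vehicle libraries lay below all others, and the DHZ and NCD vehicle libraries overlapped. HFD-STZ DHZ rose 2.06-fold over HFD-STZ vehicle (log2 fold change 1.04, SE 0.24, adjusted p = 0.0129). Against NCD vehicle, the estimate was 0.15 (SE 0.23, adjusted p = 0.70). HFD-STZ vehicle over NCD vehicle gave -0.89 (SE 0.24), and its unadjusted p = 0.0031 from edgeR did not pass adjustment (adjusted p = 0.36). The DHZ call was lost without DHZ replicate 1 (adjusted p = 0.0602) or DHZ replicate 2 (0.0502).

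Atp6ap2, the (pro)renin receptor and an accessory subunit of the vacuolar proton pump, had 30.6, 31.3 and 23.0 CPM in HFD-STZ DHZ, 11.4, 20.1 and 11.4 CPM in HFD-STZ vehicle and 12.9, 15.4 and 15.8 CPM in NCD vehicle. The DHZ libraries were the highest 3 of the 9, and the other groups overlapped. It rose in HFD-STZ DHZ by 1.00 on the log2 scale against HFD-STZ vehicle (SE 0.25, adjusted p = 0.0173) and by 0.94 against NCD vehicle (SE 0.25, adjusted p = 0.0297). The first call was lost without DHZ replicate 1, DHZ replicate 2, HFD-STZ vehicle replicate 1 or HFD-STZ vehicle replicate 3 (adjusted p up to 0.0678). The second was lost without DHZ replicate 1, DHZ replicate 2 or any of the 3 NCD vehicle libraries (up to 0.114).

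Nr3c2, the mineralocorticoid receptor through which aldosterone acts, had 10.0, 7.22 and 4.77 CPM in HFD-STZ DHZ, 4.61, 1.75 and 3.25 CPM in HFD-STZ vehicle and 5.08, 4.61 and 5.57 CPM in NCD vehicle. The DHZ libraries lay above the HFD-STZ vehicle ones, by a narrow gap between 4.77 and 4.61 CPM, and overlapped with NCD vehicle. Nr3c2 rose in HFD-STZ DHZ over HFD-STZ vehicle (log2 fold change 1.14, SE 0.34, adjusted p = 0.0308), and gave 0.53 against NCD vehicle (SE 0.32, adjusted p = 0.28). The call was lost without HFD-STZ vehicle replicate 2 or 3, or DHZ replicate 1 or 2 (adjusted p up to 0.135). The first of these is the library that stood apart, and without it the estimate was 0.91 (adjusted p = 0.058). The 5 principal cell markers, all detected, summed to 35.4 to 46.3 CPM in HFD-STZ DHZ, 41.7 to 93.9 CPM in HFD-STZ vehicle and 55.2 to 85.3 CPM in NCD vehicle. The sums of HFD-STZ DHZ and HFD-STZ vehicle overlapped. Between these groups 2 of the 5 were called lower (Aqp3 at -0.62 and Fxyd4 at -1.24), calls lost without any 1 of 7 and of 4 libraries, while Aqp2 was at -0.72, Avpr2 at 0.02 and Scnn1g at 0.59. Of the 5, 0 were called higher (12.0% of all tested genes were called lower and 10.0% higher). Against NCD vehicle the same 2 were called lower and 0 higher, where 7.38% and 6.31% of all tested genes were. Each of these 2 calls was lost without any 1 of 6 libraries. Their part in the Nr3c2 difference was not tested. A gene model on the opposite strand within Nr3c2, Gm10649, had 6 counts in all 9 libraries, against 1576 for Nr3c2.

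Enpep, aminopeptidase A, which removes the first residue of angiotensin II and so makes angiotensin III, had 31.6, 25.2 and 34.2 CPM in HFD-STZ DHZ. It had 12.6, 21.2 and 19.3 CPM in HFD-STZ vehicle and 13.8, 11.8 and 13.4 CPM in NCD vehicle. The DHZ libraries again lay above the other 6. Enpep rose 2.33-fold in HFD-STZ DHZ over NCD vehicle (log2 fold change 1.22, SE 0.23, adjusted p = 0.0111) and 1.72-fold over HFD-STZ vehicle (0.78, SE 0.23, adjusted p = 0.0304). The first call was lost only without DHZ replicate 1 (adjusted p = 0.0564). The second was lost without HFD-STZ vehicle replicate 1 or any of the 3 DHZ libraries (up to 0.0964). Enpep is made by podocytes as well as by proximal tubule cells. The 5 podocyte markers, all detected, summed to 65.1 to 81.2 CPM in HFD-STZ DHZ, 25.5 to 48.2 CPM in HFD-STZ vehicle and 54.9 to 71.1 CPM in NCD vehicle, and 2 of the 5 were called higher in HFD-STZ DHZ relative to HFD-STZ vehicle, where 10.0% of all tested genes were. Those called were Podxl and Clic5, while Synpo was at 0.35 (adjusted p = 0.44), Nphs1 at -0.70 (adjusted p = 0.169) and Wt1 at -0.29 (adjusted p = 0.34). Of the sums, Podxl held 28.6 to 37.3 CPM in HFD-STZ DHZ and 6.34 to 15.3 CPM in HFD-STZ vehicle. Clic5 held 20.5 to 26.3 CPM and 7.15 to 8.23 CPM. Synpo, Nphs1 and Wt1 overlapped between these groups. Against NCD vehicle, where 6.31% of all tested genes were called higher and 7.38% lower, 1 of the 5, Clic5, was called higher (0.79, adjusted p = 0.028, lost without any 1 of 5 libraries) and 1, Nphs1, lower (-1.24, adjusted p = 0.0367), a call lost without any 1 of 6 libraries. The 10 proximal convoluted tubule markers summed to 1138 to 1188 CPM in HFD-STZ DHZ, 775 to 1227 CPM in HFD-STZ vehicle and 1112 to 1517 CPM in NCD vehicle. Relative to HFD-STZ vehicle, 4 of the 10 were called higher in HFD-STZ DHZ and 0 lower (10.0% and 12.0% of all tested genes). Those called were Slc6a19 (1.86), Slc7a7 (1.15), Slc5a2 (0.98) and Gatm (0.97), the last 2 lost without DHZ replicate 1 or 2. Of all 10 estimates, 8 were positive and 2 negative. Against NCD vehicle 0 of the 10 were called. The part of either list in the Enpep difference was not tested.

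Mme, neprilysin, which cuts angiotensin I to angiotensin 1-7, had 85.1, 79.2 and 29.3 CPM in HFD-STZ DHZ, 44.4, 33.2 and 24.9 CPM in HFD-STZ vehicle and 24.7, 55.7 and 60.3 CPM in NCD vehicle. The groups overlapped, with 1 low library in HFD-STZ DHZ and 1 in NCD vehicle. The log2 fold change for HFD-STZ DHZ over HFD-STZ vehicle was 0.92 (SE 0.42, adjusted p = 0.135). Of the fits that left out 1 library, Mme passed only in that without DHZ replicate 3 (1.28, adjusted p = 0.0371). It also passed in the fit without the filter on low counts (adjusted p = 0.0049). Anpep, aminopeptidase N, which shortens angiotensin III, had 19.7, 18.9 and 24.3 CPM in HFD-STZ DHZ, 12.7, 6.88 and 25.0 CPM in HFD-STZ vehicle and 9.68, 12.3 and 12.5 CPM in NCD vehicle. The DHZ libraries lay above NCD vehicle but not above HFD-STZ vehicle replicate 3. Its log2 fold change was 0.47 (SE 0.35, adjusted p = 0.35) for HFD-STZ DHZ over HFD-STZ vehicle, ranging between 0.15 without HFD-STZ vehicle replicate 2 and 1.08 without HFD-STZ vehicle replicate 3, where it passed (adjusted p = 0.0255). Against NCD vehicle it was 0.86 (SE 0.35, adjusted p = 0.114), and it passed without HFD-STZ vehicle replicate 2 (adjusted p = 0.0314) or 3 (0.0401). Anpep is also made by myeloid cells. The 6 leukocyte markers summed to 20.9 to 33.3 CPM in HFD-STZ DHZ, 7.34 to 17.2 CPM in HFD-STZ vehicle and 6.31 to 11.4 CPM in NCD vehicle. Over HFD-STZ vehicle 1 of the 5 tested, Ptprc, was called higher in HFD-STZ DHZ (10.0% of all tested genes). Over NCD vehicle 2 of the 5, Ptprc and Lyz2, were (6.31%). All 5 estimates were positive in both comparisons. Both Ptprc calls were lost without any 1 of 2 libraries, and that of Lyz2 without any 1 of 4. The part of these markers in the Anpep values was not tested.

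**Figure D3:**
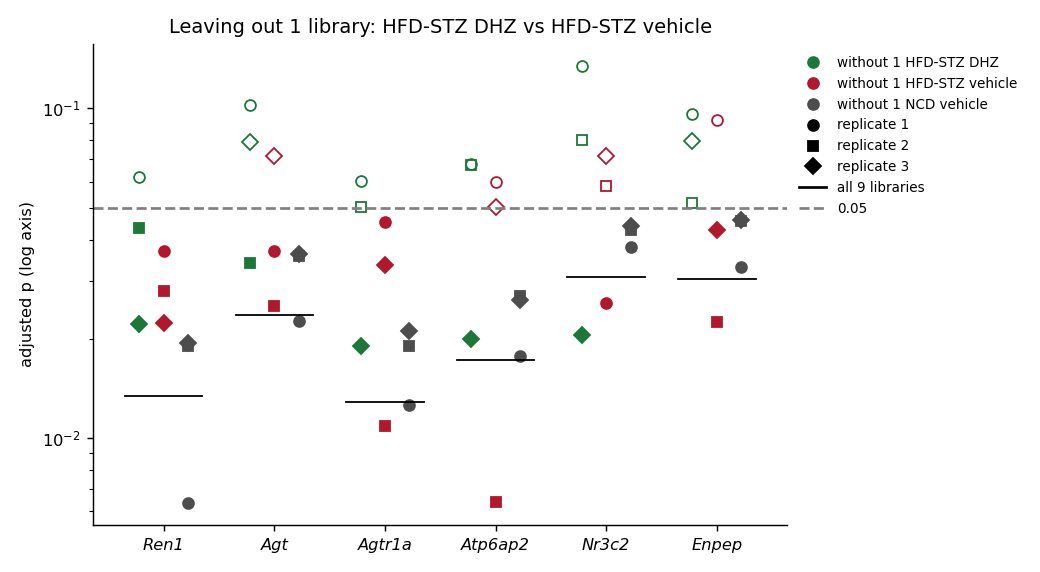
Adjusted p (log axis) of the 6 genes called for HFD-STZ DHZ over HFD-STZ vehicle when each of the 9 libraries was left out in turn. Colour gives the group and shape the replicate left out, open symbols lie above the dashed line at 0.05, and the black bar is the value with all 9. The green circles, without DHZ replicate 1, are open for all 6 genes, at 0.0602 to 0.135.

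DHZ replicate 1 carried the most weight. Without it, 0 of the 9 genes were called for HFD-STZ DHZ over HFD-STZ vehicle and 1149 genes were called in all, against 3796 with every library. DHZ replicate 2 came close. Without it, 1302 genes were called in all, and the calls of Agtr1a, Atp6ap2, Enpep and Nr3c2 were lost. The direction of the 6 called genes was the same in each of the 9 fits that left out 1 library. Ren1 was at 1.31 on the log2 scale without DHZ replicate 1. With library size alone in place of TMM, Ren1 (2.21, adjusted p = 0.039) and Atp6ap2 (1.93, adjusted p = 0.0358) were called for HFD-STZ DHZ over HFD-STZ vehicle and the other 4 were not. When only the 2 groups compared were fitted, Nr3c2 (adjusted p = 0.0625) and Enpep (0.0637) were not called.

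Against NCD vehicle, the DHZ libraries differed in 3 of the 9 genes, where 13.7% of all tested genes were called. Atp6ap2 and Enpep rose and Agt fell, as given above, so 2 of 9 were higher, where 6.31% of all tested genes were, and 1 of 9 was lower, where 7.38% were. Groups did not overlap for 5 members (44.1% of all tested genes), higher in 4 (22.4%) and lower in 1 (21.7%). An unadjusted p below 0.05 was found for 5 of 9 members and 31.7% of all tested genes. The median of the 9 log2 fold changes was 0.53, against 0.01 over all tested genes. This comparison and the one with HFD-STZ vehicle share the DHZ libraries.

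The diabetic model itself gave no call among the members. For HFD-STZ vehicle over NCD vehicle, 0 of 9 passed with edgeR, with DESeq2 or with limma-voom, where 0.0524% of all tested genes were called by edgeR, 0.0233% higher and 0.0291% lower. An unadjusted p below 0.05 was found for 1 of 9 members, Agtr1a, and for 7.43% of all tested genes. Agtr1a and Nr3c2 were lower in every HFD-STZ vehicle library than in every NCD vehicle library, 2 of 9 members, where 6.56% of all tested genes were, and 0 of 9 were higher without overlap, where 4.83% were (11.4% in either direction). In Nr3c2 the highest HFD-STZ vehicle library and the lowest NCD vehicle library were both at 4.61 CPM when rounded, and the log2 fold change was -0.62 (SE 0.34, adjusted p = 0.71). Of the others, Atp6ap2 was at -0.06 (SE 0.25, adjusted p = 0.96), Mme at -0.46 (SE 0.42, adjusted p = 0.81), Enpep at 0.44 (SE 0.23, adjusted p = 0.70) and Anpep at 0.39 (SE 0.35, adjusted p = 0.81).

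Per kilobase of merged exons, the order of the members differed between groups. In HFD-STZ DHZ, Atp6ap2 was highest with 10.8 ± 1.77 CPM per kilobase (SD, n = 3). Enpep (6.45 ± 0.981), Mme (5.59 ± 2.66), Agt (5.37 ± 1.49) and Anpep (5.07 ± 0.695) followed and had overlapping ranges of mean ± SD. Then came Ren1 (2.82 ± 0.545), Agtr1a (2.57 ± 0.335) and Ace (2.42 ± 0.852), which also overlapped, and Nr3c2 (1.13 ± 0.406). In both vehicle groups Agt was highest, with 9.93 ± 1.60 CPM per kilobase in HFD-STZ vehicle and 10.9 ± 1.97 in NCD vehicle. Atp6ap2 came next, with 5.46 ± 1.92 in HFD-STZ vehicle and 5.62 ± 0.592 in NCD vehicle. Nr3c2 was lowest, with 0.495 ± 0.221 and 0.786 ± 0.0742. Ren1 stood just above it in both, with 0.986 ± 0.240 and 1.48 ± 0.583 in the same order of groups. Ren1 and Nr3c2 were apart by more than their SDs in both vehicle groups, while from Atp6ap2 down to Ren1 the mean ± SD of each gene overlapped that of the next.

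Mme varied with the presence of Y-linked transcripts. This split was seen in the data and is not a group of the study. The 4 libraries with Y-linked transcripts had 24.7 to 33.2 CPM of Mme (median 27.1) and the 5 without had 44.4 to 85.1 CPM (median 60.3), with no overlap. In a fit with group and this split as terms, the log2 difference of libraries with Y-linked transcripts minus those without was -1.12 (SE 0.20, adjusted p = 0.0078), and 3.43% of all tested genes were called for the term. Mme was the only member called for it, and the others ranged between -0.62 (Ace, adjusted p = 0.31) and 0.35 (Enpep, adjusted p = 0.33). The split is uneven over the groups, with 1 of 3 libraries in HFD-STZ DHZ, 2 of 3 in HFD-STZ vehicle and 1 of 3 in NCD vehicle. With the term in the fit, 6 members were called for HFD-STZ DHZ over HFD-STZ vehicle, among them Ren1 at 1.30 (adjusted p = 0.0151), Agt at -1.01 (adjusted p = 0.0117) and Enpep at 0.92 (adjusted p = 0.0098), and Mme stood at 0.43 (adjusted p = 0.21).

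**Figure D4:**
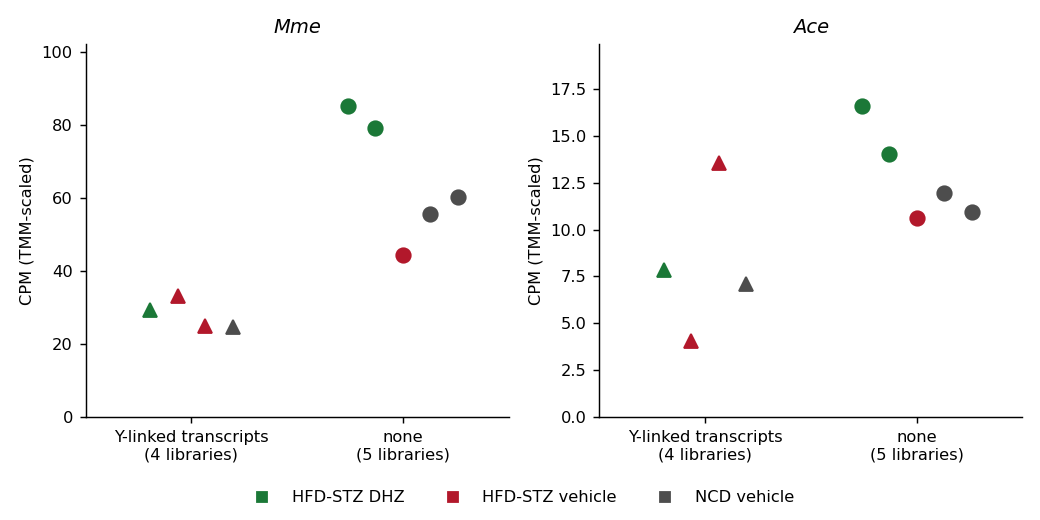
Mme (left) and Ace (right) in CPM in the 4 libraries with Y-linked transcripts (triangles) and the 5 without (circles), coloured by group. Mme is at 24.7 to 33.2 CPM with Y-linked transcripts and at 44.4 to 85.1 CPM without, while the Ace ranges, 4.05 to 13.6 CPM and 10.6 to 16.6 CPM, overlap.

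Of 16 other renin-angiotensin genes, 9 passed the filter on low counts. For HFD-STZ DHZ over HFD-STZ vehicle, 1 of the 9 was called higher and 1 lower (10.0% and 12.0% of all tested genes), with a list median of -0.11 on the log2 scale. The higher one was Lnpep, an aminopeptidase that binds angiotensin IV, with 27.8, 26.2 and 22.6 CPM in HFD-STZ DHZ, 16.5, 18.2 and 17.3 CPM in HFD-STZ vehicle and 17.3, 14.8 and 18.5 CPM in NCD vehicle (log2 fold change against HFD-STZ vehicle 0.56, SE 0.19, adjusted p = 0.048). Leaving out any 1 of 7 libraries ended its call, with adjusted p up to 0.16. The lower one was Agtrap, a protein that binds the type 1 receptor and promotes its internalisation, with 23.5, 28.8 and 33.3 CPM in HFD-STZ DHZ, 47.4, 50.7 and 53.0 CPM in HFD-STZ vehicle and 64.4, 46.6 and 45.3 CPM in NCD vehicle. Its 3 DHZ libraries were the lowest of the 9. The log2 fold change was -0.82 against HFD-STZ vehicle (SE 0.22, adjusted p = 0.0222) and -0.87 against NCD vehicle (adjusted p = 0.0263). Both calls were lost without DHZ replicate 1 or 2, and the second also without NCD vehicle replicate 1 or 2. Against NCD vehicle, Dpp3, a peptidase that degrades angiotensins, fell too (log2 fold change -0.78, adjusted p = 0.044), a call lost without DHZ replicate 1 or 2 or any NCD vehicle library, and the list median was -0.03. In that comparison 2 of the 9 were called lower and 0 higher, where 7.38% and 6.31% of all tested genes were. The receptor genes Agtr1b, Agtr2 and Mas1 did not pass the filter, with 6, 10 and 25 counts over all 9 libraries.

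**Figure D5:**
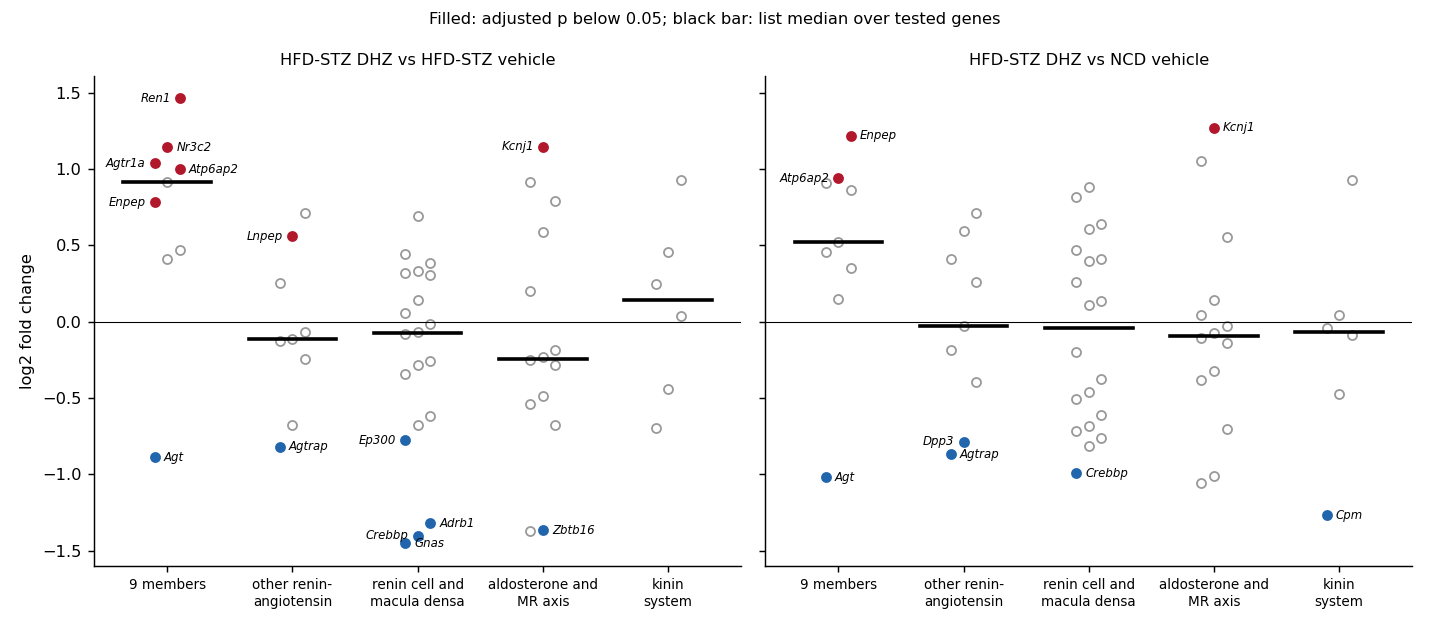
Log2 fold changes of the 9 members and of the tested genes of 4 further lists for HFD-STZ DHZ over HFD-STZ vehicle (left) and against NCD vehicle (right). Filled points are called at an adjusted p below 0.05 and the bar is the list's median. The medians of the 4 further lists lie between -0.24 and 0.14 in the left panel, where that of the members is 0.92. Members and lists were chosen with earlier results known.

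Of 21 renin cell and macula densa genes, 20 were tested. For HFD-STZ DHZ over HFD-STZ vehicle 0 of the 20 were called higher, where 10.0% of all tested genes were, and 4 of the 20 lower, where 12.0% were (median -0.07). Adrb1, the beta-1 adrenergic receptor through which sympathetic nerves stimulate renin release, fell to 2.18, 2.82 and 2.21 CPM in HFD-STZ DHZ, against 6.07, 6.61 and 5.50 CPM in HFD-STZ vehicle, and was at 2.41, 2.04 and 2.27 CPM in NCD vehicle. The HFD-STZ vehicle libraries stood above the other 6. Its log2 fold change was -1.32 for HFD-STZ DHZ over HFD-STZ vehicle (SE 0.23, adjusted p = 0.0056), 0.11 for HFD-STZ DHZ against NCD vehicle (adjusted p = 0.79) and 1.43 for HFD-STZ vehicle over NCD vehicle (adjusted p = 0.066). Gnas, which encodes the stimulatory G protein that couples such receptors to cAMP, fell by 1.45 (SE 0.32, adjusted p = 0.0102), and the coactivators Crebbp and Ep300, which act with CREB, fell by 1.40 (SE 0.28, adjusted p = 0.0074) and by 0.78 (SE 0.25, adjusted p = 0.043). Adrb1 and Crebbp were called whichever library was left out. Gnas was lost without DHZ replicate 1 or 2, and Ep300 without any 1 of 6 libraries, among them HFD-STZ vehicle replicate 2 (-0.45, adjusted p = 0.116). In that library Gnas stood at 1117 CPM and Crebbp at 212 CPM, above 570 and 606 CPM of Gnas and 131 and 129 CPM of Crebbp in the other HFD-STZ vehicle libraries. With library size alone, 0 of the 4 were called. Akr1b7, which is made with renin in juxtaglomerular cells, was at 0.31 (adjusted p = 0.67). Against NCD vehicle 1 gene of the list was called, Crebbp, lower at -0.99 (adjusted p = 0.0348), a call lost without any DHZ library or NCD vehicle replicate 1 or 2. Of all tested genes, 7.38% were called lower there.

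The 14 genes listed for the aldosterone and mineralocorticoid receptor axis were all tested, and 1 was called higher and 1 lower for HFD-STZ DHZ over HFD-STZ vehicle (median -0.24), where 10.0% and 12.0% of all tested genes were. DESeq2 called 5 of the 14 and limma-voom 1, where they called 4707 and 3658 of all 17179 tested genes. Kcnj1, the ROMK potassium channel, had 160, 144 and 67.1 CPM in HFD-STZ DHZ, 63.7, 53.9 and 50.2 CPM in HFD-STZ vehicle and 27.6, 65.1 and 61.2 CPM in NCD vehicle. DHZ replicates 1 and 2 were far above replicate 3, which was itself above the other 6 libraries. Kcnj1 rose by 1.15 (SE 0.37, adjusted p = 0.042) against HFD-STZ vehicle and by 1.27 (adjusted p = 0.0395) against NCD vehicle, where it was the only gene of the list called. Of all tested genes, 6.31% were called higher against NCD vehicle. Zbtb16, a transcription factor induced by steroid hormones, fell by 1.36 (SE 0.41, adjusted p = 0.033) in HFD-STZ DHZ, with 4.14, 1.79 and 1.60 CPM there, 8.95, 3.78 and 6.22 CPM in HFD-STZ vehicle and 4.06, 4.36 and 7.03 CPM in NCD vehicle, and the groups overlapped. The Kcnj1 call against HFD-STZ vehicle was lost without any 1 of 7 libraries (up to 0.154), that against NCD vehicle without DHZ replicate 1 or 2 or any NCD vehicle library, and the Zbtb16 call without any 1 of 4 libraries (up to 0.129).

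Atp1b1, also on that list, had 609.6, 509 and 357 CPM in HFD-STZ DHZ, 262, 287 and 233 CPM in HFD-STZ vehicle and 145, 259 and 309 CPM in NCD vehicle. Its DHZ libraries lay above the other 6, but it was not called (0.92, adjusted p = 0.0613, over HFD-STZ vehicle and 1.05, adjusted p = 0.051, over NCD vehicle). It was named after its values were seen. For HFD-STZ DHZ over HFD-STZ vehicle, the aldosterone-induced kinase Sgk1 was at 0.79 (adjusted p = 0.38). The sodium channel subunits Scnn1a, Scnn1b and Scnn1g were at -0.19 (adjusted p = 0.67), -0.25 (0.38) and 0.59 (0.15). Hsd11b2, which shields the mineralocorticoid receptor from glucocorticoids, was at -0.54 (adjusted p = 0.089), and Nr3c1, the glucocorticoid receptor, at 0.20 (0.48). Of the kinin list, 6 of 7 genes were tested. For HFD-STZ DHZ over HFD-STZ vehicle, 0 of the 6 were called by edgeR, DESeq2 or limma-voom. An unadjusted p below 0.05 from edgeR was found for 1 of the 6, where 37.1% of all tested genes had one. Against NCD vehicle 1 was called, the carboxypeptidase Cpm, lower at -1.27 (SE 0.31, adjusted p = 0.024), a call lost without any DHZ library or NCD vehicle replicate 1 or 2. Of all tested genes, 7.38% were called lower in that comparison. For HFD-STZ vehicle over NCD vehicle, 0 genes of the 4 lists passed with edgeR or limma-voom. DESeq2 called 2 of the 20 tested renin cell genes, where it called 126 of all 17179 tested genes. In the renin-angiotensin, renin cell, aldosterone and kinin lists, 0 of 9, 3 of 20, 1 of 14 and 0 of 6 had an unadjusted p below 0.05 from edgeR. Of all tested genes, 7.43% had one.

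Likeness of pattern was measured as Pearson's r of log2 CPM over the 9 libraries, among 10127 genes, as a description, since the libraries share groups, depth and make-up. The genes most like Ren1 were Epm2aip1 (r = 0.99), Arfip2 and Ndufs4, and those most like Agt were Mrpl23 (r = 0.969), Wdr34 and Smim5. For Agtr1a they were Sult1c2 (r = 0.946), Nox4 and Ralgps2, for Atp6ap2 Klhl24 (r = 0.989), Casd1 and Mrpl3, and for Nr3c2 Mpzl1 (r = 0.965), Dnajc18 and Abca4. For Enpep they were Slc25a30 (r = 0.974), Spata6 and Dhx9, for Mme Gsta4 (r = 0.984), Wfdc15b and Slc16a7, for Anpep Ube2l3 (r = 0.969), Asna1 and Dhrs11, and for Ace Ak1 (r = 0.980), Uck2 and Fem1a. None of these was itself a member. Among the members, the highest r was 0.776 between Atp6ap2 and Enpep, followed by 0.770 between Ren1 and Nr3c2. The lowest were -0.870 between Agt and Enpep and -0.726 between Agt and Atp6ap2.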

How the data were processed

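Messenger RNA of 9 mouse kidney libraries was sequenced, 3 per group. The submitters' processing notes name STAR, FastQC and Trim Galore and build GRCm39 (mm39). Tool versions, how reads were counted, and the handling of strand and multiple mapping were not given in the sources used here. A stranded kit was used, per the labels' protocols. The authors deposited raw counts per gene as whole numbers, and 94.1% of the 55359 identifiers were matched to a symbol. The table holds 0 other columns of per-sample values. Each library has a batch date of its own in the labels, and the dates run with the groups, which therefore cannot be told apart from batch. The labels do not say that each library came from an animal of its own. Every group held libraries with Y-linked transcripts and libraries without, so no group came from a single animal. A p-value still measures only how these samples spread, part of which may be technical.

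The counts were fitted with edgeR 4.0.16 in R 4.3.3. Genes were filtered with filterByExpr, libraries scaled by TMM, and 1 robust quasi-likelihood fit over all 9 libraries had group as its only term (6 residual degrees of freedom, common dispersion 0.0893). Tests are two-sided. CPM are counts per 1 M (mega) counts of scaled library size. Exon lengths came from GENCODE on the older build GRCm38, and promoters from RefSeq. DESeq2 1.42.0, limma-voom (limma 3.58.1), library size only, removal of mitochondrially encoded genes, no filter, only the groups compared, a replicate block, a term for Y-linked transcripts and leaving out each library were the alternatives. The fit was tested on simulated data. Intervals are not given, and levels below 10 counts carry large counting error.

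The 9 members and the further lists were chosen with earlier results of these data known. Named genes are the members, called genes of each list, key genes of the aldosterone axis, and the 3 genes most like each member whose mean log2 CPM reaches 1. Some genes that the naming rule covers are not reported here, and they are left out of the list counts.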

Additional observations from a re-analysis of the deposited data

How the results depend on the processing

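Counts of members called for HFD-STZ DHZ over HFD-STZ vehicle, HFD-STZ DHZ over NCD vehicle and HFD-STZ vehicle over NCD vehicle, in this order, were 6, 3 and 0 with edgeR and TMM. They were 6, 4 and 0 with DESeq2 or with the Y-linked term, 6, 3 and 0 with limma-voom or without mitochondrially encoded genes, 4, 4 and 0 with only the groups compared, and 7, 5 and 0 without the filter on low counts. With library size only they were 2, 0 and 0 (Ren1 at 2.21 and Atp6ap2 at 1.93 in the first comparison), and the median of all genes then moved to 0.81, 0.04 and -0.74. Of the genes called in all, 93.7% were then higher in the first comparison, against 45.5% with TMM, and 24.1% against 44.4% in the last. Removing mitochondrial genes, unprocessed pseudogenes, Malat1 and Neat1 together, a choice made after seeing the data, gave 6, 3 and 0. Leaving out each library gave 0 to 6, 0 to 4 and 0 to 0 members.

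Genes called in all were 3796, 2352 and 9 with edgeR and TMM, 4707, 3530 and 126 with DESeq2, 3660, 3617 and 42 with the Y-linked term, 888, 36 and 29 with library size only, 3658, 2591 and 2 with limma-voom, 4633, 3380 and 425 without the filter, and 2860, 3981 and 3 with only the groups compared. They were 1149 to 4086, 112 to 3706 and 2 to 28 with 1 library left out. Each DHZ comparison lost the most without DHZ replicate 1.

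The replicate number as a block gave 5, 1 and 0 members and 2159, 772 and 2 genes in all. Enpep was lost in the first comparison (adjusted p = 0.0659), and Agt (0.0508) and Atp6ap2 (0.0575) in the second. Deviations of same-numbered libraries correlated at -0.18 to 0.22, -0.41 to 0.16 and -0.40 to -0.13. In the same order, 3, 0 and 0 of 6 libraries were closest to their own number. The Y-linked split does not fall on the same numbers in each group and enters these correlations, so they cannot exclude a pairing. The numbers were used as names only.

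Of 162 member values under the alternatives, 134, 139 and 153 kept their direction and side of the threshold. In 9 the sign turned, all for HFD-STZ vehicle against NCD vehicle, where 0 members were called. They were Enpep at -0.42 and Anpep at -0.33 with library size only, Ace at 0.21 with the Y-linked term, and, with 1 library left out, Ace (-0.41 to 0.28), Atp6ap2 (-0.37 to 0.10) and Anpep (-0.21 to 0.72). The cause was not tested. Depth limits Ren1 most, with 9 to 50 counts in HFD-STZ vehicle.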

Other observations

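Markers of organs beside the kidney were listed to see what the tissue pieces held. Of 9 adrenal markers, 5 were detected, summing to 0.785 to 1.18 CPM in HFD-STZ DHZ, 0.405 to 1.08 CPM in HFD-STZ vehicle and 1.07 to 1.50 CPM in NCD vehicle. Most of that sum was Star, at 0.727 to 1.06 CPM, 0.405 to 1.03 CPM and 0.997 to 1.44 CPM in the same order of groups. Cyp11b2, the aldosterone synthase that is the adrenal end of the system, and Cyp21a1, Th and Pnmt were at 0 in all 9 libraries. The 6 white adipocyte markers, all detected, summed to 24.5 to 84.5 CPM in HFD-STZ DHZ, 10.3 to 22.5 CPM in HFD-STZ vehicle and 15.0 to 74.9 CPM in NCD vehicle. Most of that sum was Fabp4, which is not limited to adipocytes, and in DHZ replicate 2, with 24.5 CPM of Fabp4, Adipoq, Cfd, Lep and Retn were at 0. Their part in the Agt values was not tested.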
